A study of Rattus norvegicus with 4 samples.

Results

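The genes followed here mark blood vessel endothelium or carry its growth signals: Pecam1, Kdr, Flt1, Tek, Tie1, Cdh5, Plvap, Vwf, Eng and Angpt2. They were taken by name, as endothelial and angiogenesis receptor genes, with no threshold on their measured values, although earlier results of these arrays were known. Of these 10 genes, 9 had a probe set named for them alone, of 14217 genes so named on the array, and the 9 were read by 12 of the 31099 probe sets. Cdh5, the cadherin of endothelial junctions, was not analysed here because no probe set was named for it alone. Transcript levels came from 4 mammary cancers of female Sprague-Dawley rats, each hybridised to 1 single-colour oligonucleotide array. The animals were bought at 5 weeks of age, received a single 0.5 Gy dose of carbon ions to the whole body at 7 weeks (290 MeV/u, with a 6 cm spread-out Bragg peak, the depth over which the beam delivers its dose), and ate AIN-76A diet with 23.5% corn oil beyond 9 weeks of age. All 4 tumours therefore share the irradiation and the fat-rich diet, they form 1 group, and the labels do not say whether they came from separate rats. Tumours of unirradiated rats and normal gland were not analysed here, so the differences below are between tumours and none measures an effect of irradiation.

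Vessels that feed a tumour grow under a pair of receptor tyrosine kinase systems. VEGF ligands act on Kdr (VEGF receptor 2), which carries most of the growth and permeability signal, and on Flt1 (VEGF receptor 1), which binds VEGF tightly, signals weakly and also has a secreted form that traps the ligand. Angiopoietins act on Tek (Tie2), aided by the orphan receptor Tie1, and Angpt2 is the angiopoietin released by activated endothelium that loosens the vessel wall, whereas Angpt1 stabilises it. Pecam1 is an adhesion protein of endothelial contacts that leukocytes and platelets also carry, Plvap forms the diaphragms of fenestrated capillaries, Vwf is a clotting protein stored in endothelium and in megakaryocytes, and Eng is a co-receptor for ligands of the TGF-beta family.

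Values are given as log2(signal + 16), here called the log2 signal, on the scale in which the arrays were deposited. A gene was called expressed where its brightest probe set had a mean of at least 7.81, the median of all probe-set means, and 9403 genes were. With 1 array per tumour there is no error for a single tumour and no test. The SD given with each mean is the spread over 4 tumours (n = 4), and neighbouring tumours in an order of levels cannot be said to differ beyond error. The arrays had been brought to one level, with a 2% trimmed mean signal of 500.1 in each, and the median log2 signals of the arrays differed by at most 0.13. The difference between the 3' and 5' probe sets, a measure of RNA integrity, ran from -0.02 to 0.04 log2 for GAPDH from 0.30 to 0.48 for beta-actin, with the highest value in tumour 3, and from 1.10 to 1.21 for hexokinase, with the highest value in tumour 2. Luminal epithelial markers were expressed in full, with 9 of 9, and of the 8 basal epithelial markers 7 were expressed. Of the 11 defining endothelial markers, 10 were measured and 7 were expressed (Kdr, Tek, Tie1, Vwf, Emcn, Esam and Icam2). Pecam1 lay just below the level of expression, and the junction gene Cldn5 (mean 7.14 log2 signal) and the transcription factor Erg (6.80) lay further below it.

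The median SD of the endothelial genes was 0.46 log2 over the 9 measured, beside 0.21 over the expressed genes and 0.25 over all 14217. Of these 9 genes, 4 differed 2-fold or more from their lowest to their highest tumour (Flt1, Tek, Plvap and Angpt2), against 21.1% of all genes. All 4 were among the 8 expressed members, and 12.4% of the expressed genes had such a range. The count fell to 1 without tumour 1, to 2 without tumour 4 and to 3 without tumour 2, and stayed at 4 without tumour 3. Leaving out a tumour can only narrow a range, and Flt1, Plvap and Tek lay close to the cut of 1 log2, at 1.08, 1.11 and 1.13. Eng was the steadiest of the 9, with an SD of 0.12, and Angpt2 the most variable, with 0.58.

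**Figure D1:**
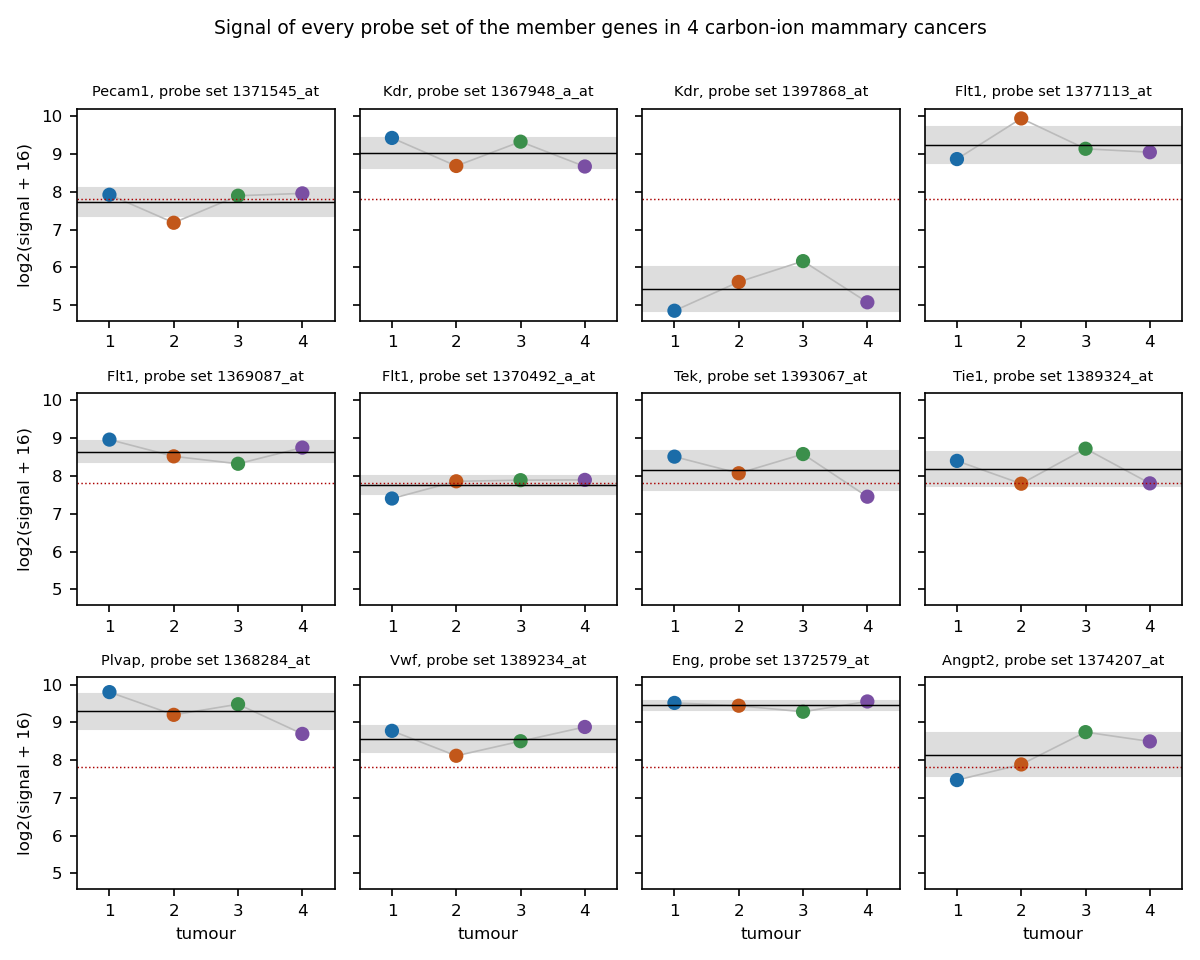
Log2(signal + 16) of each of the 12 probe sets (y axis) in tumours 1 to 4 (x axis), with the mean as a black line, 1 SD over the 4 tumours as a grey band and the level of expression, 7.81, as a dotted line; the thin grey line only joins points of one probe set. Kdr, Tek, Tie1 and Plvap are highest in tumours 1 and 3, Pecam1 is low in tumour 2, and the 3 probe sets of Flt1 take different orders.

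Kdr, the main VEGF receptor, was read by 2 probe sets. The brighter one (1367948_a_at) gave signals of 673, 396, 628 and 392 in tumours 1 to 4, or log2 signals of 9.43, 8.69, 9.33 and 8.67. The tumours fell into a higher pair, 1 and 3, and a lower pair, 2 and 4, with a gap of 0.64 log2 between the pairs and at most 0.10 within them. The mean was 9.03 ± 0.41 (SD, n = 4), and the deposited signal of the highest tumour was 1.72-fold that of the lowest. The dim probe set (1397868_at) stayed between 12.9 and 55.8 in signal, below the level of expression, and there tumour 1 was the lowest rather than the highest. In a bulk tumour sample, fewer endothelial cells and less RNA per endothelial cell cannot be told apart, which holds for every gene below.

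Tek, the angiopoietin receptor, had signals of 349, 253, 367 and 159, or 8.51, 8.07, 8.58 and 7.45 log2. Tumours 1 and 3 were again the highest and tumour 4 the lowest, 0.62 log2 below the next tumour. The mean was 8.15 ± 0.52 (SD, n = 4) and the range 1.13 log2, which shrank to 0.51 without tumour 4.

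Tie1, its partner receptor, had signals of 322, 206, 407 and 208, or 8.40, 7.80, 8.72 and 7.81 log2. Tumour 3 was the highest and tumours 2 and 4 lay within 0.01 log2 of each other at the bottom, 0.60 below tumour 1. The mean was 8.18 ± 0.46 (SD, n = 4) and the range 0.93 log2.

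Plvap, the fenestral diaphragm gene, had signals of 877, 572, 699 and 398, or 9.80, 9.20, 9.48 and 8.69 log2. The highest signal was 2.20-fold the lowest, and tumours 1 and 3 were once more above tumours 2 and 4. The mean was 9.29 ± 0.47 (SD, n = 4). Without tumour 4 the range fell from 1.11 to 0.60 log2.

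These 4 genes therefore had the same 2 highest tumours, 1 and 3, a pair held by 12.1% of the expressed genes. None of the 9 had tumours 1 and 2 or tumours 2 and 4 on top. Pecam1, Vwf and Eng had tumours 1 and 4, Flt1 tumours 2 and 3, and Angpt2 tumours 3 and 4. Over all expressed genes the most common pair was tumours 2 and 3, with 24.7%. The tally of highest pairs was chosen after the values had been seen, and a single array stands behind each tumour.

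Promoters are shown for genes of this set because the 4 transcripts had the same tumours on top, although the order within and below that pair was not the same in all 4. The sequences are the 250 bases before the start site in RefSeq GRCr8, read on the gene's strand, for Kdr (chr14:32571813-32572062, plus strand), Tie1 (chr5:137304982-137305231, minus strand) and Plvap (chr16:18231280-18231529, minus strand). RefSeq promoters were matched for 5 of the 10 members (Eng, Flt1, Kdr, Plvap and Tie1). Capitals mark AGGAAG or its reverse complement CTTCCT, a form of the GGAA core that ETS-family transcription factors, a class much used by endothelial genes, bind.
Kdr promoter: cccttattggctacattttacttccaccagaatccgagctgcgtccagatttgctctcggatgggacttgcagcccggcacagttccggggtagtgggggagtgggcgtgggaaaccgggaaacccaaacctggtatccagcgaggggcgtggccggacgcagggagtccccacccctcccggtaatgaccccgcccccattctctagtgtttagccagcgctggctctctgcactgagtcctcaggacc
Tie1 promoter: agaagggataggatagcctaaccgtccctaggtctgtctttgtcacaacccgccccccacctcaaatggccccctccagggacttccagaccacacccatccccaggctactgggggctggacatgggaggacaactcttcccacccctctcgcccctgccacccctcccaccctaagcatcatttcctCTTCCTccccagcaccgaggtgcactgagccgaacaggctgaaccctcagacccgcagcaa
Plvap promoter: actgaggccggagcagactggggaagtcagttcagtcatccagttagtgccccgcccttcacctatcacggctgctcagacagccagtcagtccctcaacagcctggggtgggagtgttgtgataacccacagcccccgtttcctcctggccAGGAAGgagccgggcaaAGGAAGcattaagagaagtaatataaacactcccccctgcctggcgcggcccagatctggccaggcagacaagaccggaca
AGGAAG was found on either strand in 29.5% of the 33469 rat promoters of this length. Plvap held 2 matches and Tie1 held 1, at -61 from the start site, while Kdr held none. Eng and Flt1, which had other tumours on top, held 2 each. The shorter GGAA, which overlaps every AGGAAG, was present in 93.2% of promoters and occurred 4 times in each of Kdr, Tie1 and Plvap and 3 times in Eng and Flt1, beside a median of 3. These promoters were rich in G and C, with 59.2% to 73.2% beside a median of 51.2%. A match describes letters in this window and is not a measured binding site.

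Flt1, the VEGF receptor that also yields a secreted trap, was read by 3 probe sets that gave conflicting orders, as the pair for Kdr also did. The brightest (1377113_at) had signals of 452, 970, 549 and 514, or 8.87, 9.95, 9.14 and 9.05 log2, so tumour 2 stood 0.80 log2 above the rest. Its mean was 9.25 ± 0.48 (SD, n = 4), and its range of 1.08 log2 shrank to 0.27 without tumour 2. A second probe set (1369087_at) read 8.96, 8.52, 8.32 and 8.75 log2, highest in tumour 1 and lowest in tumour 3. The third (1370492_a_at), just under the level of expression at a mean of 7.76, read 7.40, 7.86, 7.89 and 7.90 log2, with tumour 1 low. The mean of the 3 probe sets had a range of 0.36 log2. Which transcript form of Flt1 each probe set reads was not determined here, so the high value of tumour 2 belongs to 1 probe set and not to the gene as a whole. By its brightest probe set Flt1 was also the sole member that in tumour 2 exceeded the average of the other 3.

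Angpt2, the destabilising ligand of Tek, was highest in tumour 3, as Tek and Tie1 were, but departed from them in tumours 1 and 4. Its signals were 161, 221, 412 and 345, or 7.47, 7.89, 8.74 and 8.50 log2, with tumours 3 and 4 high and tumour 1 the lowest. The gap between the higher and the lower pair was 0.61 log2, the mean 8.15 ± 0.58 (SD, n = 4) and the range 1.27 log2, the widest of the 9 genes by their brightest probe sets. In tumour 1, where Tek and Tie1 exceeded the average of the rest by 0.48 and 0.29 log2, Angpt2 was below it, at -0.90. In tumour 4, Tek and Tie1 were at -0.94 and -0.50 and Angpt2 at 0.46. The signs were shared in the other tumours. Tek, Tie1 and Angpt2 were at 0.57, 0.72 and 0.79 in tumour 3 and at -0.11, -0.51 and -0.35 in tumour 2.

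Pecam1, the platelet and endothelial adhesion gene, had signals of 227, 129, 223 and 233, or 7.92, 7.18, 7.90 and 7.96 log2. Tumours 1, 3 and 4 lay within 0.06 log2 of each other and tumour 2 lay 0.72 below them. The mean was 7.74 ± 0.37 (SD, n = 4), which 48.9% of all probe sets fell below.

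Vwf, the stored clotting factor, had signals of 422, 261, 346 and 455, or 8.78, 8.12, 8.50 and 8.88 log2. Tumour 2 was again the lowest, by 0.39 log2, and tumour 4 was the highest, in contrast to Kdr, Tek and Plvap, which were lowest there. The mean was 8.57 ± 0.34 (SD, n = 4), and without tumour 2 the range fell from 0.76 to 0.38 log2.

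Eng, the TGF-beta co-receptor, had signals of 716, 679, 606 and 736, or 9.52, 9.44, 9.28 and 9.55 log2. The mean was 9.45 ± 0.12 (SD, n = 4). Its range of 0.27 log2 was under the 0.47 of the median expressed gene, so Eng set no tumour apart.

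Megakaryocytes and platelets carry Vwf and Pecam1 as well. Of 8 platelet markers 5 were measured, and Pf4 was the only one expressed. Their summed signal was 938, 886, 817 and 792 in tumours 1 to 4, with no marker at 0 (lowest signal 17.0). Tumour 4, the highest for Vwf, had the lowest sum, which rested on Pf4 (496, 501, 436 and 317). Pf4 alone of the 5 was lowest in tumour 4, and 1 of the others was highest there. Macrophages, which express Pecam1, were marked by 13 genes, 11 of them expressed. Their summed signal was 21548 in tumour 1, 13290 in tumour 2, 8114 in tumour 3 and 12933 in tumour 4, again with none at 0. All 11 fell short of the average of the rest in tumour 3, where Pecam1 was not low. The lowest value fell in tumour 3 for 10 of the 11, beside 21.1% of all expressed genes. The part of these cells in the values of Vwf and Pecam1 was not tested.

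Counted by tumour over the 8 expressed members, the highest value fell in tumour 3 for 3 genes, in tumours 1 and 4 for 2 each and in tumour 2 for 1. Among all expressed genes the shares were 28.0%, 26.4%, 24.5% and 21.1% for tumours 1 to 4. The lowest value fell in tumour 4 for 3 genes, in tumours 1 and 2 for 2 each and in tumour 3 for 1, where all expressed genes gave 36.2%, 17.6%, 21.1% and 25.1%. These counts over 8 genes are a description and are too small to set against the shares.

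Over the 9 measured members, the median difference of a tumour from the mean of the other 3 was 0.28 log2 in tumour 1, -0.35 in tumour 2, 0.25 in tumour 3 and -0.27 in tumour 4. The median expressed gene lay at -0.04, 0.04, 0.03 and -0.02. The values in tumours 1 to 3 kept their sign under every alternative tried. In tumour 4 the value became 0.02 with a gene's probe sets averaged, 0.14 when the second probe set of Kdr and Flt1 was used, and 0.05 without tumour 2, so no direction is given for it. Behind that median stood Tek, Plvap, Tie1 and Kdr from -0.94 to -0.48 and Pecam1, Vwf, Eng and Angpt2 from 0.14 to 0.46.

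Among the ligands and co-receptors of the VEGF receptors, with the further receptor Flt4 counted in, 8 genes were measured and 6 were expressed. Of those, 2 had a 2-fold range, Vegfa and Vegfc, beside 12.4% of all expressed genes. Vegfa, the principal VEGF and a target of the hypoxia response, read 10.77, 10.45, 10.68 and 11.69 log2 on its brighter probe set (1373807_at) and 9.64, 9.06, 9.39 and 10.32 on the other (1370081_a_at). Both put tumour 4 highest and tumour 2 lowest, with a range of 1.24 and 1.26 log2. Kdr, its receptor, was in the lower pair in tumours 2 and 4, so ligand and receptor were both low in tumour 2 and lay at opposite ends in tumour 4.

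Vegfc, the ligand of lymphatic growth, read 9.02, 8.47, 8.16 and 7.45 log2, highest in tumour 1 and lowest in tumour 4, the reverse of Vegfa there. Its main receptor Flt4 was below the level of expression in the mean (6.62) and also highest in tumour 1, at 7.35. Vegfd was below that level too, at a mean of 6.68. The ligands that bind Flt1, Pgf and Vegfb, were both highest in tumour 4 and lowest in tumour 2 on their brightest probe sets. Pgf read 9.06, 8.91, 9.85 and 9.90 log2, and its second probe set (1368919_at) instead read highest in tumour 3, at 9.74, and lowest in tumour 1, at 8.64. Vegfb read 8.13, 7.98, 8.65 and 8.80 log2. The co-receptor Nrp1 was lowest in tumour 2 on both probe sets, by the brighter at 9.86 beside 10.32 to 10.50 elsewhere. Nrp2, used by Vegfc, read 9.21, 8.71, 8.69 and 8.46 log2, highest in tumour 1.

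On the angiopoietin side 5 of 6 further genes were measured and 3 were expressed. Angpt1, the stabilising ligand that competes with Angpt2, was below the level of expression in all 4 tumours, between 4.54 and 5.66 log2. Ptprb, the phosphatase that dampens Tek signalling, read 9.50, 8.63, 8.79 and 8.83 log2 and was thus highest in tumour 1. Angptl2 was also highest in tumour 1 (9.22, 8.59, 8.49 and 8.27). Angptl4, a secreted inhibitor of lipoprotein lipase, peaked with Angpt2 in tumour 3 but was lowest in tumour 4 (8.91, 9.05, 9.81 and 8.34), and it alone of the 3 had a 2-fold range, of 1.47 log2.

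**Figure D2:**
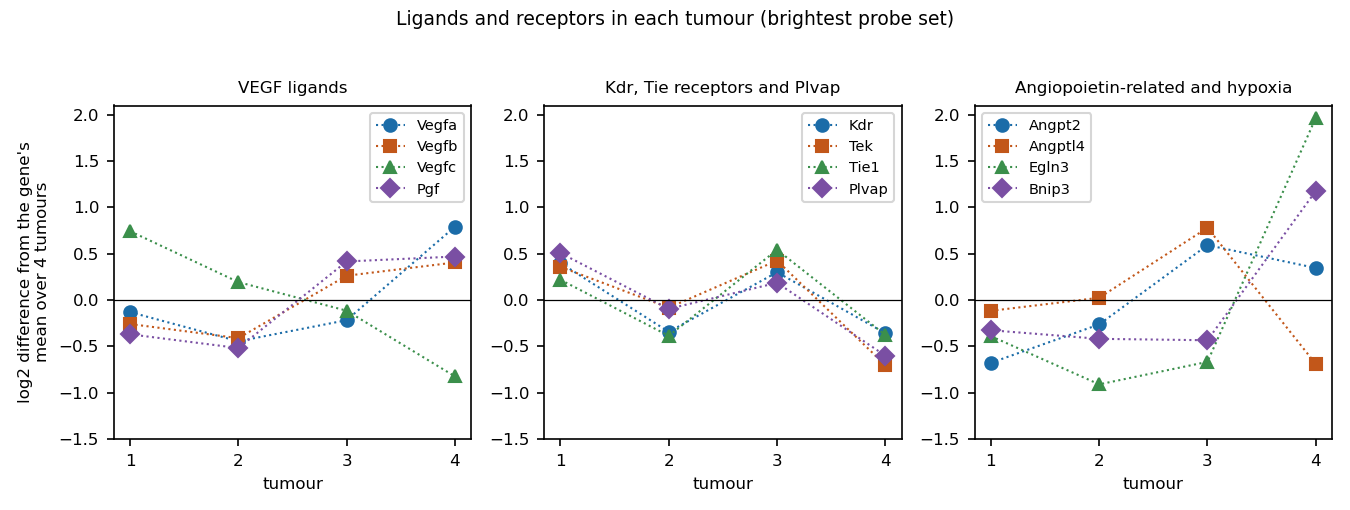
Difference of the log2 signal from each gene's mean over the 4 tumours (y axis) by tumour (x axis), brightest probe set of each gene; dotted lines join the points of one gene and carry no order of tumours. Kdr, Tek, Tie1 and Plvap are above their means in tumours 1 and 3, whereas Vegfa, Vegfb and Pgf are highest in tumour 4.

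The hypoxia response list, which includes Vegfa, was led by tumour 4. Of its 12 measured genes 9 were expressed, all 9 exceeded the average of the rest in tumour 4, with a median of 1.06 log2, and 7 were highest there. Of all expressed genes 21.1% were highest in tumour 4. Egln3, the oxygen-sensing hydroxylase induced by HIF, read 8.77, 8.25, 8.49 and 11.12 log2, and Bnip3, a HIF target in mitophagy, 10.07, 9.98, 9.97 and 11.58. P4ha1, a collagen hydroxylase, was the exception among the 4 of widest range, with 11.16 in tumour 1 and 10.98 in tumour 4. In tumour 4 these genes, Vegfa, Pgf and Vegfb were thus at their highest or nearly so while Kdr, Tek and Plvap were at their lowest (Kdr by 0.01 log2 under tumour 2). The members as a set did not share that low value. Pecam1, Vwf and Eng were highest in tumour 4, at 7.96, 8.88 and 9.55 log2, and Angpt2 exceeded the average of the rest there by 0.46. The haemoglobin gene Hbb, a sign of red blood cells, was also highest in tumour 4, at 12.99 log2 beside 10.21 to 11.32. The part of oxygen supply or blood content in the endothelial values was not tested.

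Tumours 1 and 3, the highest pair for Kdr, Tek, Tie1 and Plvap, were also the highest pair for part of the other endothelial surface genes. Of 31 measured 20 were expressed, 11 of them were highest in tumour 1, 7 in tumour 3, 2 in tumour 4 and none in tumour 2, and 18 fell short of the average of the rest in tumour 2. The lowest value fell in tumour 2 for 8 of the 20, beside 17.6% of all expressed genes. Of these 20 genes, 10 had tumours 1 and 3 as the highest pair (Emcn, Icam2, Mcam, Ramp2, Adgrl4, Aqp1, Gja5, Plxnd1, Gpihbp1 and Jam2), and 10 had a 2-fold range. Among all expressed genes 12.1% had that pair and 12.4% such a range, while 28.0% were highest in tumour 1 and 24.5% in tumour 3. Emcn, the sialomucin of veins and capillaries, read 8.68, 8.05, 9.04 and 7.87 log2, and Ramp2, the partner of the adrenomedullin receptor, 9.30, 9.00, 9.56 and 8.52. Both had tumour 4 lowest, as Tek and Plvap did. Aqp1, the water channel, had the widest range, 2.42 log2, with 12.10, 9.68, 11.10 and 10.41, and its second probe set had the same order. The arterial connexin Gja5 read 8.89, 7.22, 7.95 and 7.52 log2, while the connexin Gja4 departed from the pattern, with 7.92, 7.61, 8.47 and 9.04. Esam, an adhesion protein of tight junctions, was low in tumour 2 and close in the rest (9.30, 8.79, 9.39 and 9.31), like Pecam1.

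**Figure D3:**
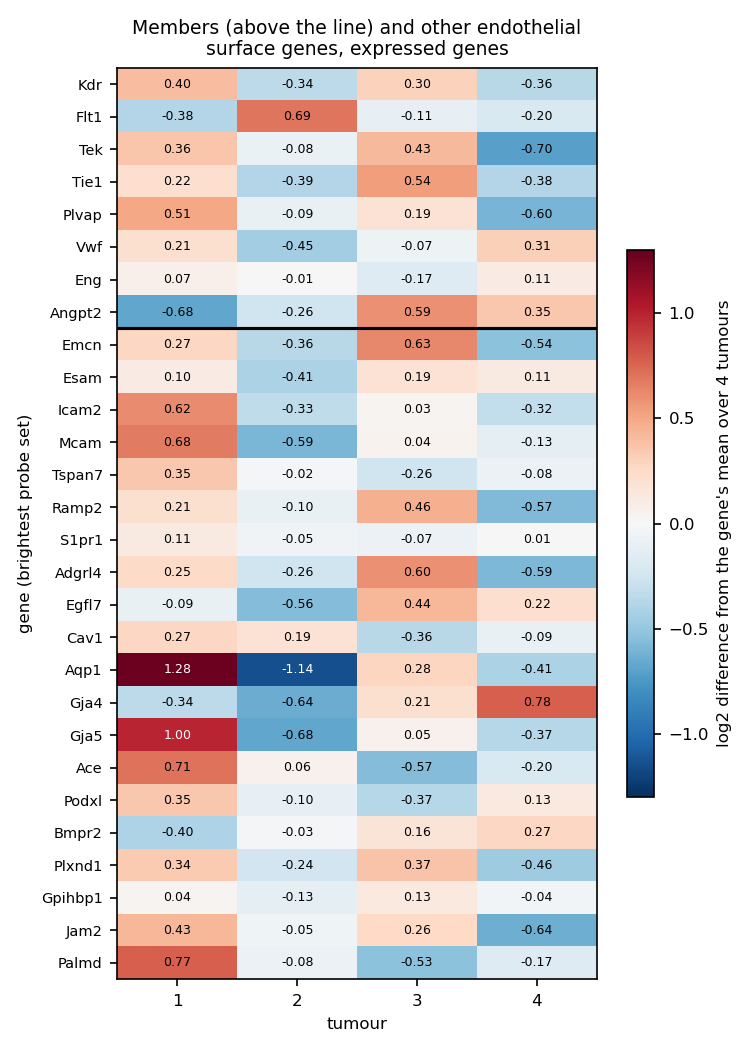
Difference of the log2 signal from each gene's mean over the 4 tumours (x axis), colour and number in log2, for the 8 expressed members (above the line) and the 20 other expressed endothelial surface genes (y axis), brightest probe set of each. Tumours 1 and 3 are mostly red and tumours 2 and 4 mostly blue, with Flt1, Angpt2 and Gja4 among the exceptions.

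Over the surface genes, endothelial transcription factors, tip cell genes and Notch and ephrin genes together, without the members, 66 genes were measured and 43 expressed. Of the 43, 18 (41.9%) had a 2-fold range and 15 (34.9%) had tumours 1 and 3 as the highest pair. The shares over all expressed genes were 12.4% and 12.1%. The median differences from the other tumours were 0.35, -0.30, 0.07 and -0.13 log2 in tumours 1 to 4. Tumour 1 was the highest for 21 and tumour 2 the lowest for 19, while tumour 2 was the highest for 2. The shares over all expressed genes were 28.0%, 17.6% and 26.4%. Tumour 1 was thus above and tumour 2 below the others in this set as in the members, whereas the median in tumour 3 was 0.07 here and 0.25 in the members.

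Among the transcription factors 10 of 18 were expressed. Klf4, a flow-responsive factor that epithelium also expresses, was high in tumour 1 alone, at 10.77 beside 8.57 to 8.86 log2. Nr2f2, the factor of venous identity, followed with 10.72 in tumour 1 beside 9.01 to 9.43. Sox18 (8.42, 7.92, 8.34 and 7.75) and Tcf4 (11.32, 10.81, 11.50 and 10.49) also had tumours 1 and 3 above tumours 2 and 4.

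Tip cell genes mark the leading cells of a sprout, and all 6 expressed exceeded the average of the rest in tumour 1, with a median of 0.71 log2. In tumour 2 all 6 fell short of it, with a median of -0.55. Of the 6, 4 were highest in tumour 1 and 5 lowest in tumour 2, beside 28.0% and 17.6% of all expressed genes. Esm1, a secreted proteoglycan of tip cells whose mean of 7.19 lay below the level of expression, went the other way, lowest in tumour 1 at 6.42 and highest in tumour 4 at 8.53. Among the 6 the apelin receptor Aplnr ranged most, with 8.91, 7.66, 8.18 and 6.82 log2, and its second probe set, below the level of expression, kept tumour 1 highest but put tumour 3 lowest. Its ligand Apln read 9.70, 8.51, 8.51 and 8.96, the basement membrane protein Nid2 9.13, 7.85, 9.11 and 8.44, and the netrin receptor Unc5b 9.32, 8.34, 8.49 and 8.88. The Notch and ephrin genes held no common order. Notch4, the Notch receptor of endothelium, had tumours 2 and 3 as its highest pair on all 3 probe sets (8.31, 9.20, 9.51 and 8.43 log2 on the brightest). On the dimmest (1378533_at) only tumour 3 stood out, with 5.66, 6.01, 7.35 and 5.86. The brightest probe set of Flt1 had the same highest pair, but there tumour 3 was just 0.09 log2 above tumour 4. Jag2 (10.49, 10.21, 9.90 and 10.97) and Efna1 (9.19, 9.42, 9.91 and 10.08) were highest in tumour 4.

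The list of pericyte and smooth muscle genes did not follow the receptors. Part of its expressed genes, Myh11 and Cnn1 among them, are also on the basal epithelial list, so it does not read vessel-sheathing cells alone. Of 15 pericyte and smooth muscle genes, 9 were expressed and 5 of those had a 2-fold range, beside 12.4% of all expressed genes. The median differences of the 9 were 0.08, -0.07, 0.04 and 0.32 log2. Pdgfrb, the pericyte receptor for PDGF, read 9.69, 8.00, 8.79 and 7.71 log2, with tumours 1 and 3 above the others on its brightest probe set. Rgs5 read 9.75, 8.45, 9.21 and 9.46, low in tumour 2. Myh11, which myoepithelial cells also make, was highest in tumour 4 (9.91, 10.60, 9.26 and 11.50), as was Ndufa4l2 (8.04, 7.19, 8.01 and 8.68). Among the inhibitors of angiogenesis 7 of 9 measured were expressed, and 6 of the 7 were highest in tumour 1. The share over all expressed genes was 28.0%. Col18a1, the source of endostatin, read 12.27, 11.18, 12.19 and 10.82 log2, with tumours 1 and 3 on top on both probe sets.

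Fibroblast markers moved with part of the pattern. Of 10 measured 9 were expressed, and all 9 were lowest in tumour 4, with a median of -1.49 log2. Their summed signal was 50970, 39682, 48219 and 15867, so tumours 1 and 3 were above tumour 2 and far above tumour 4. Plvap also had that order, but the sum is weighted by the brightest genes. Of the 9 markers, 4 had tumours 1 and 3 as the highest pair, 3 had tumours 1 and 2, and 2 had tumours 2 and 3. Luminal epithelial markers had summed signals of 32664, 58109, 68058 and 57890, and 8 of 9 were lowest in tumour 1. Over all expressed genes 36.2% were lowest in tumour 1 and 25.1% in tumour 4. No fibroblast or luminal marker was at 0 (lowest signals 132 and 579). The part of stromal and epithelial content in the endothelial values was not tested.

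**Figure D4:**
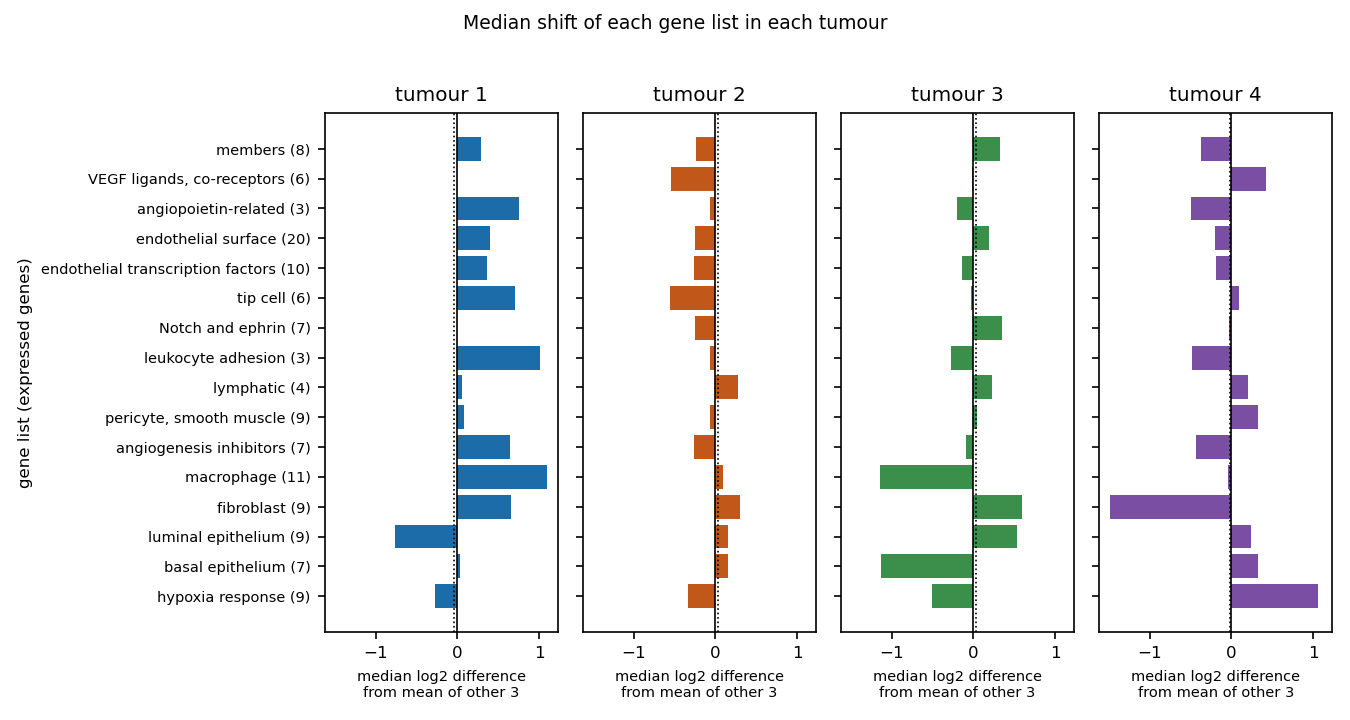
Median log2 difference of each gene list from the mean of the other 3 tumours (x axis), a panel for each tumour, over the expressed genes of each list (number in brackets, y axis); the dotted line is the median of all expressed genes. The expressed members sit at 0.28, -0.24, 0.32 and -0.37 in tumours 1 to 4, fibroblast genes at -1.49 and hypoxia response genes at 1.06 in tumour 4.

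The genes whose pattern was closest to each variable member were found by the root mean square difference of log2 values, each centred on its mean over the 4 tumours, among the other expressed genes with a 2-fold range (1165 for each member). For Tek they were Col5a1, a fibrillar collagen chain (0.09), Jam2, a junctional adhesion protein (0.10), and Ramp2 (0.10). For Plvap they were Cryzl1-ps1 (0.03), Slc34a2 (0.04) and Crot (0.05), and none of these is on a vascular list. For Angpt2 they were Klhdc7a (0.07), Susd4 (0.09) and Epb41 (0.10), and for Flt1 Naaa (0.07), Nudt7 (0.08) and Psat1 (0.10). For the mean of the members they were Il11ra1 (0.24), Tmem150c (0.25) and Ramp2 (0.26). That mean ran only from -0.17 in tumour 2 to 0.21 in tumour 3, so genes with a 2-fold range could not lie near it. Among all expressed genes many were closer, such as Gpihbp1 at 0.07, which itself ranked 93rd.

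Ranked among all 9402 other expressed genes, several endothelial genes lay near Tek. Jam2 was 4th, Ramp2 5th, Tcf4 6th, Plxnd1 19th, Adgrl4 20th and Plvap 21st, and Kdr and Tie1 were 113th and 141st. Near Plvap, Jam2 was also 4th and Tek 63rd. The ranks of Jam2 belong to its brightest probe set. Another at or above the level of expression (1380244_at) had a range of 0.16 log2, highest in tumour 2 and lowest in tumour 3. Near Angpt2 the first vascular genes were Efna1, a membrane-bound ephrin ligand, at 73rd, and Pgf, at 109th. Near Flt1 no gene of the vascular lists came before Cnn1, a smooth muscle gene, at 1010th. Over 4 tumours many genes fall near any given order, so these distances describe the arrays and give no test.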

How the data were processed

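Total RNA (8 µg) of 4 tumours was primed at the poly(A) tail, labelled with biotin and hybridised to 1 array each, per the labels' protocols. The deposited table holds linear intensity values per probe set in the form the authors gave. How they were scaled and by which software is not given in the sources used here, and no detection calls were used. Intensities were taken as log2(value + 16) without further scaling. Of 31099 probe sets, 20826 were named for 1 gene by the platform annotation and 436 named several and were left out. The probe set with the highest mean stood for a gene, and every probe set of a member was described. The 4 genes of widest range among the expressed members of each of 20 lists could be named, with the VEGF and angiopoietin ligands and co-receptors. Flt4, Cldn5, Erg, Esm1, Esam, Icam2, Emcn, Ramp2, Jam2 and Lyve1 were named beyond that rule as markers, neighbours, receptors or a departure from a list (Esm1, after its values were seen). The members were taken by name with no threshold on their values, but they and the lists were chosen with earlier results of these data known. With 1 group and 1 array per tumour no test between tumours was possible, so counts are set beside those of all genes. The number of arrays limits the precision. Other scalings (median shift, quantile), pseudocounts (1 and 64), probe set choices and leaving out each tumour were tried. Scripts (Python 3.11.15, pandas 2.3.3, NumPy 2.4.6) were tested on simulated data. Genome coordinates of genes are not given since the files name no build, apart from the RefSeq GRCr8 promoters.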

Additional observations from a re-analysis of the deposited data

Results flagged for a closer look

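Dixon's ratio, the gap of the extreme tumour to its nearest neighbour over the whole range, was examined for 62 probe sets of the members and the named genes, and 6 passed the 95% critical value for 4 samples. Chance passes about 1 in 20 groups of samples that were not chosen by their values. Many of these probe sets belong to genes named for their wide range, so that rate is no yardstick here and the 6 are a description. Of the 12 probe sets of the members, those of Pecam1 (ratio 0.92, tumour 2 low by 0.72 log2) and the dimmest of Flt1 (1370492_a_at, 0.925, tumour 1 low by 0.46) were among them. The other endothelial genes were Esam (0.852, tumour 2 low by 0.51), Prox1, a factor of lymphatic endothelium (0.85, tumour 1 low by 1.20), and Klf4 (0.87, tumour 1 high by 1.91). Bnip3 of the hypoxia list stood apart in tumour 4 (0.933, at 11.58 beside 9.97 to 10.07 log2). Pecam1 and Esam, a pair of adhesion genes of endothelial contacts, both had their low value in tumour 2. Without tumour 2 the range of Pecam1 was 0.06 log2.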

How the results depend on the processing

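No paired analysis was possible because the 4 tumours form 1 group. The count of members with a 2-fold range was 4, 5 with a median shift or quantile normalization, 3 with averaged probe sets or a pseudocount of 64, and between 1 (without tumour 1) and 4 when a tumour was left out. The median SD stayed between 0.37 and 0.48 log2 under every alternative. Shifting the arrays to a common median moved the median expressed gene to -0.13, 0.10, 0.11 and -0.08 log2, and the members' medians to 0.19, -0.28, 0.33 and -0.33. The number of members with tumours 1 and 3 as the highest pair, a count chosen after seeing the data, was 4, and 3 with averaged or second probe sets. The number lowest in tumour 2 or 4, also chosen after seeing the data, was 6, and 5 with second probe sets or over the expressed members alone. With a tumour left out it lay between 4 and 8, but fewer tumours can then be the lowest, so those counts are not comparable with the 6. Of 98 alternatives for the range of a single member 90 stayed within 1 SD. Many of the 98 could not move, so the 90 do not measure robustness. Averaged or second probe sets repeat the range of a member with 1 probe set, and keeping only expressed members repeats every range. Leaving out a tumour that is neither highest nor lowest also leaves a range as it was. The 8 that moved by 1 SD or more were those of Flt1 (0.36, averaged probe sets, and 0.27, without tumour 2), Kdr (1.31, second probe set), Pecam1 (0.06) and Vwf (0.38) without tumour 2, Eng (0.11) without tumour 3, and Tek (0.51) and Plvap (0.60) without tumour 4. The cause was not tested. Of 9 measured members Pecam1 lay below the level of expression, where the signal sits closer to background.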

Other observations

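The lymphatic list had 4 of 6 measured genes expressed, and its median differences from the other tumours lay between 0.06 and 0.28 log2. Lyve1, the hyaluronan receptor of lymphatic endothelium that some macrophages also carry, read 8.71, 8.86, 8.76 and 7.99 log2 in tumours 1 to 4 and was lowest in tumour 4 on both of its probe sets, the tumour in which Vegfc was also lowest. Prox1 read 7.38, 8.58, 8.62 and 8.79 on its brighter probe set, lowest in tumour 1, whereas the dim probe set was lowest in tumour 2. Pdpn, which fibroblasts and myoepithelial cells also express, read 10.35, 9.89, 8.62 and 9.97, lowest in tumour 3. These 3 lymphatic genes thus had different lowest tumours.

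Among the genes by which endothelium binds leukocytes, 3 of 7 measured were expressed, and Sele, Selp and Vcam1 were not. Glycam1, a selectin ligand of high endothelial venules that lactating mammary epithelium also secretes, spanned 6.13 log2, from 7.24 in tumour 4 to 13.37 in tumour 3. Cd44, which many cell types carry, was highest in tumour 1 on both probe sets (10.43 beside 8.78 to 9.34 on the brighter). Of the adipocyte list 1 of 8 measured genes was expressed, of the lymphocyte list 1 of 7 and of the red blood cell list 1 of 3, which left no list to set beside the endothelial genes there.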
